A study of Mus musculus with 12 samples.

Results

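The genes examined were the 10 that set the level of malonyl-CoA in the heart and carry long-chain fatty acids into mitochondria. They were the acetyl-CoA carboxylases Acaca and Acacb, the carboxylase activator Mid1ip1, malonyl-CoA decarboxylase (Mlycd), fatty acid synthase (Fasn), the carnitine palmitoyltransferases Cpt1a, Cpt1b and Cpt2, the carnitine-acylcarnitine carrier Slc25a20 and the carnitine transporter Slc22a5. They were chosen by gene symbol, with earlier results of these data known. All 10 were found among the 26921 genes of the count table. They also passed the filter on low expression that left 11225 genes for testing. RNA was sequenced from left ventricles of 16-week-old mice, with 6 libraries per genotype and 1 animal per library. WT mice carried floxed Gch1 alleles on both chromosomes (Gch1 flox/flox) and no Cre recombinase, and cmGch1 KO mice were Gch1 flox/flox animals that also carried 1 copy of a Cre transgene under α-MHC control, and that promoter acts in cardiomyocytes. Gch1 encodes the enzyme that starts the synthesis of tetrahydrobiopterin (BH4), a cofactor of nitric oxide synthases. Both genotypes therefore carried the floxed alleles and differed in Cre as well as in Gch1. Hearts with Cre and unfloxed Gch1, which the study also generated, are not analysed here.

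Malonyl-CoA is made from acetyl-CoA by the acetyl-CoA carboxylases, removed by malonyl-CoA decarboxylase, and used by fatty acid synthase to build new fatty acids. It also blocks the carnitine palmitoyltransferase of the outer mitochondrial membrane, so that a cell with much malonyl-CoA burns less long-chain fatty acid. In cardiac muscle, which makes little fatty acid, malonyl-CoA is best known for this inhibitory role. The shuttle itself joins the acyl chain to carnitine on the outer membrane, exchanges acylcarnitine for carnitine across the inner membrane, and rebuilds acyl-CoA in the matrix.

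Depth was 22356463 to 37917806 counts for WT and 19921398 to 35480715 for cmGch1 KO libraries. Gch1 fell to 51.4% of the WT mean, from 10.7 ± 0.974 to 5.48 ± 0.855 cpm (counts scaled to a common library size by TMM; mean ± SD, n = 6), with no overlap between the groups (edgeR quasi-likelihood test, Benjamini-Hochberg adjusted p = 0.000688). Libraries of cmGch1 KO replicates 2 and 3 stood apart from the other 10. They held Xist at 86.7 and 99.1 cpm and 0 counts for Uty, Kdm5d, Eif2s3y and Ddx3y, which lie on the Y chromosome (3 counts would be 0.139 and 0.129 cpm). Elsewhere Xist did not exceed 0.234 cpm and these genes summed to 167 cpm or more. By these sex-linked genes, cmGch1 KO replicates 2 and 3 differed in sex from the other 10 libraries. Sex was thus not balanced between the genotypes, and the sample labels do not give it. These 2 libraries also had the lowest mitochondrial share of counts, 14.9% and 16.1% against 18.3% to 22.9%. Since no WT library resembled them, each difference of the 10 genes is also given without them. The RNA came from whole ventricle, in which fewer cells of a type and less RNA per cell cannot be told apart.

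Mid1ip1 was the gene of the 10 that passed the test, and it fell to 74.7% of its WT level. Fasn had the opposite direction, with a mean at 131.3% of WT, but did not pass after adjustment over all genes. Of the others, Acaca, Acacb, Mlycd, Cpt1b, Cpt2, Slc25a20 and Slc22a5 had lower means in cmGch1 KO hearts, between 75.4% and 92.8% of WT, and Cpt1a had a mean at 104.9%. Thus 1 of 10 genes was called at an adjusted p under 0.05, against 1.12% of all tested genes in either direction and 0.445% called lower. At an unadjusted p under 0.05, 5 of 10 were lower (Mid1ip1, Cpt2, Acacb, Slc22a5 and Slc25a20) against 4.51% of all tested genes, and 1 of 10, Fasn, was higher against 7.01%. Without the 2 libraries with Xist, 2 of 10 were lower at that threshold (Mid1ip1 and Slc22a5) against 2.63% of all genes tested in that fit, and Fasn alone was higher against 4.49%. With library size scaling or scaling to cardiomyocyte markers, only Mid1ip1 of the 10 was lower at that threshold, and without WT replicate 1 the count was 3 of 10. The groups overlapped for all 10 genes, and 1.87% of all tested genes had groups that did not overlap. The median log2 fold change of the 10 was -0.21, beside -0.01 over all tested genes, of which 53.3% were lower. Of the 10 genes 8 had lower fitted values, and these genes were measured in the same 12 hearts and are not independent of each other. As they were chosen with earlier results of these data known, the shares above are no test of the set.

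**Figure D1:**
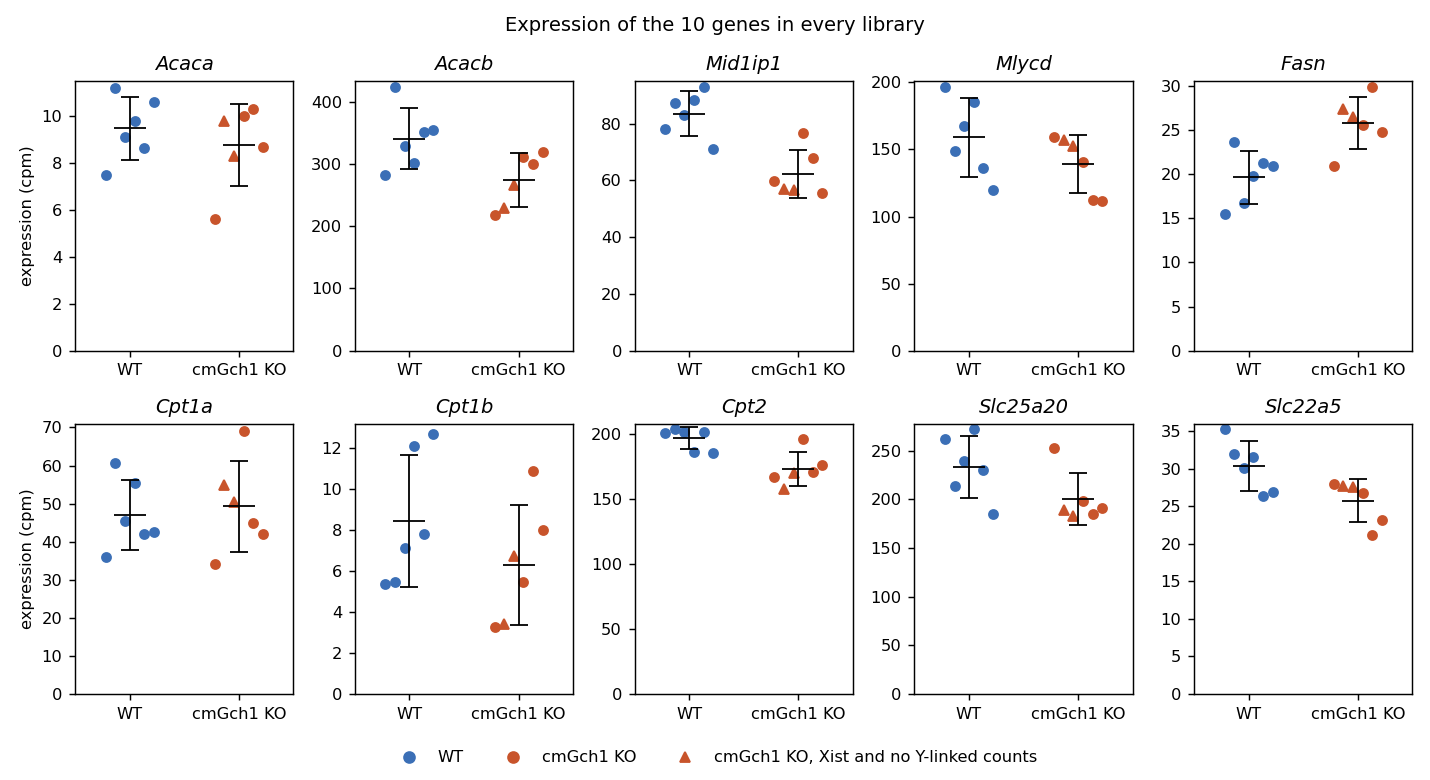
Expression of each of the 10 genes in cpm (vertical axes, linear from 0) in the 6 WT and the 6 cmGch1 KO libraries, 1 point per library with the mean and SD as bars; triangles mark the 2 cmGch1 KO libraries with Xist. For Mid1ip1 and Cpt2, 5 of 6 cmGch1 KO points lie below the lowest WT point, and for Fasn 5 of 6 lie above the highest.

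The promoter stretches of the 3 genes with the smallest p-values, Mid1ip1, Fasn and Cpt2, are printed here because these are the genes whose libraries separated most. Each is the 250 bases before the RefSeq start site on GRCm38.p6, read 5′ to 3′ on the gene's strand, at chrX:10717115-10717364 (plus strand), chr11:120824548-120824797 (minus strand) and chr4:107923590-107923839 (minus strand). Capitals mark the GC box GGGCGG and the CCAAT box CCAAT on either strand.
Mid1ip1: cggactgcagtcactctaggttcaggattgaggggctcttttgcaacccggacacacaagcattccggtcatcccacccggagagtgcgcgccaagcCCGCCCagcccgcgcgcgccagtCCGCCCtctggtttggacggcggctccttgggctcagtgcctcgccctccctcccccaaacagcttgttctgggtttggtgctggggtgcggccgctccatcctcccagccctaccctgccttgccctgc
Fasn: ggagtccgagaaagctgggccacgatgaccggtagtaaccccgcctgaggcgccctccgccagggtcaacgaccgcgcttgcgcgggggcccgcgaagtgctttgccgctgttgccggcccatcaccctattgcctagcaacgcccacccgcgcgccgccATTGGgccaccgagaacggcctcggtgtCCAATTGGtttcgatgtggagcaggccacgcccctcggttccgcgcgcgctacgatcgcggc
Cpt2: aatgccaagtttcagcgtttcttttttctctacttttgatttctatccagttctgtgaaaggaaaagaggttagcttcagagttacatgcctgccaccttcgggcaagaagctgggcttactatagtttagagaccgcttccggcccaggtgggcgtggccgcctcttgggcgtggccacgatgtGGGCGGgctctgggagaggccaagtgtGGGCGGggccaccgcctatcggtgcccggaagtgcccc
The Mid1ip1 window held 2 GC boxes, 153 and 130 bases before the start, and no CCAAT box. The Cpt2 window likewise held 2 GC boxes, 65 and 38 bases before the start. The Fasn window held 3 CCAAT boxes and no exact GC box, at 90, 62 and 59 bases before the start, the last 2 overlapping on opposite strands. The windows differed in base composition, with 66.8% G and C for Mid1ip1, 69.2% for Fasn and 56.8% for Cpt2. A RefSeq window was found for 9 of the 10 genes, and not for Cpt1b. The GC box was in 5 of the 9, against 32.7% of 32817 promoters of the same length, and the CCAAT box in 4, against 33.8%. The E-box CACGTG was in 0 of 9 and 6.02% of all promoters, and the nuclear receptor hexamer AGGTCA was in 1 of 9, Cpt1a, and 14% of all. The direct repeat of that hexamer with 1 base between the copies (DR1) was in 0 of 9 and in 0.0335% of all. Both strands were searched, and a repeat also counts as a hexamer. These matches describe letters in a window only. For Cpt1a the RefSeq start lies 967 bases inside the GENCODE gene, for Mid1ip1 2352, for Acacb 18983 and for Acaca 65766. These windows thus lie before a later start than the first one GENCODE lists, and which start the hearts used was not tested.

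Malonyl-CoA synthesis was represented by both carboxylases and their activator. Acacb (ENSMUSG00000042010, chr5:114146535-114250761, plus strand) encodes the carboxylase of the outer mitochondrial membrane, whose malonyl-CoA meets carnitine palmitoyltransferase. It was measured at 282.4, 422.8, 329.0, 301.2, 351.9 and 354.7 cpm in WT replicates 1 to 6. In cmGch1 KO replicates 1 to 6 it was at 217.3, 229.0, 265.7, 310.6, 300.4 and 319.9 cpm. All 6 cmGch1 KO libraries were below the WT median and 3 were below the lowest WT library. The means were 340.3 ± 49.3 and 273.8 ± 43.5 cpm (n = 6 each), a log2 fold change of -0.31 (SE 0.12) that did not pass edgeR's quasi-likelihood test after Benjamini-Hochberg adjustment (adjusted p = 0.274). As a single value the difference had p = 0.0303 in an exact permutation test over libraries, two-sided, and 0.138 without the 2 libraries with Xist. Acaca (ENSMUSG00000020532, chr11:84129672-84401651, plus strand), the cytosolic carboxylase that feeds fatty acid synthesis, was low in both genotypes, at 9.48 ± 1.37 and 8.78 ± 1.75 cpm. Its WT libraries ran from 7.47 to 11.2 cpm and its cmGch1 KO libraries from 5.6 to 10.3 cpm, so that 5 of 6 cmGch1 KO libraries lay within the WT range. Its log2 fold change was -0.11 (SE 0.14, 95% interval -0.39 to 0.17; edgeR adjusted p = 0.868).

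Mid1ip1 (ENSMUSG00000008035, chrX:10715013-10719690, plus strand) encodes a small protein that promotes polymerisation of the carboxylases and so raises their activity. WT replicates 1 to 6 held 78.1, 87.1, 83.0, 88.2, 93.0 and 70.9 cpm. In cmGch1 KO replicates 1 to 6 the values were 59.9, 56.8, 56.5, 76.6, 67.9 and 55.6 cpm. Only cmGch1 KO replicate 4 reached into the WT range, and there it exceeded the lowest WT library alone. Mid1ip1 fell from 83.4 ± 7.93 to 62.2 ± 8.38 cpm (n = 6 each), a log2 fold change of -0.42 (SE 0.09, 95% interval -0.60 to -0.24; edgeR quasi-likelihood test, Benjamini-Hochberg adjusted p = 0.0431). The exact permutation test on its cpm, two-sided, gave p = 0.00433, where the smallest possible value is 0.00216. The gene is X-linked, and its mean was 56.7 cpm in the 2 cmGch1 KO libraries with Xist and 65.0 cpm in the other 4. Without those 2 libraries the log2 fold change was -0.36 (SE 0.10) and the call was lost (edgeR adjusted p = 0.308), while the exact permutation p was 0.0143. With sex-linked expression as a covariate it was also -0.36, and edgeR's adjusted p was 0.206. GENCODE places an antisense gene, Gm14493, over 543 bases (25.5%) of the Mid1ip1 exons. It is not analysed here, and whether the counting used strand is not given in the sources used here. Mid1ip1 and Acacb are in the study's own list of fatty acid metabolism genes, which was drawn from these samples and is no independent evidence of their direction. The paper's pathway analysis used genes at a false discovery rate under 0.05, a threshold that Acacb did not pass in the main analysis here.

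Removal and use of malonyl-CoA were represented by Mlycd and Fasn, which had opposite signs. Mlycd (ENSMUSG00000074064, chr8:119394878-119411102, plus strand) encodes the decarboxylase that turns malonyl-CoA back into acetyl-CoA. It had means of 159.0 ± 29.5 cpm for WT and 138.9 ± 21.8 cpm for cmGch1 KO hearts, with ranges of 120.1 to 196.7 and 111.9 to 158.9 cpm. Of the 6 cmGch1 KO libraries 4 lay within the WT range, and the log2 fold change of -0.20 (SE 0.13) did not pass edgeR's test (adjusted p = 0.656). Fasn (ENSMUSG00000025153, chr11:120805846-120824547, minus strand) encodes the enzyme that builds palmitate from malonyl-CoA. In WT replicates 1 to 6 it was at 15.5, 23.6, 16.7, 19.8, 21.2 and 20.9 cpm. In cmGch1 KO replicates 1 to 6 it was at 20.9, 27.3, 26.4, 25.5, 29.8 and 24.8 cpm. Except for cmGch1 KO replicate 1, each cmGch1 KO library was above the highest WT library, and Fasn was the one gene of the 10 with that pattern. The means were 19.6 ± 3.02 and 25.8 ± 2.95 cpm (n = 6 each), with a log2 fold change of 0.39 (SE 0.11, 95% interval 0.18 to 0.61). This missed the threshold in edgeR's quasi-likelihood test after Benjamini-Hochberg adjustment (adjusted p = 0.125), with an exact permutation p of 0.00866 on cpm. Without the 2 libraries with Xist the log2 fold change was 0.37 (SE 0.13, edgeR adjusted p = 0.5). Fasn is also abundant in fat, and the 8 adipocyte markers summed to 24.1 to 38.8 cpm in WT and 28.4 to 46.0 cpm in cmGch1 KO libraries (exact permutation p = 0.271). Most of each sum was Cidea, at 22 to 29.6 and 28 to 37.1 cpm (log2 0.24; edgeR adjusted p = 0.286). Cidea had the sign of Fasn and was the 1 marker of this list that passed the filter. The others did not share 1 direction. Cfd ran from 1 to 6.36 cpm in WT and from 0.221 to 5.6 cpm in cmGch1 KO libraries. Adipoq likewise ran lower in cmGch1 KO, from 0.0276 to 0.833 cpm against 0.296 to 1.31 cpm. Cidec reached 1.42, Plin1 1.16, Retn 0.516 and Lep 0.139 cpm, each in a cmGch1 KO library, and Ucp1 0.029 cpm in WT. The part of fat cells in the level of Fasn was not tested.

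The carnitine shuttle had lower means for 3 of its 4 genes in cmGch1 KO hearts, none of which passed the adjusted test. Cpt2 (ENSMUSG00000028607, chr4:107903981-107923610, minus strand) encodes the transferase of the inner membrane, which rebuilds acyl-CoA in the matrix. Its WT libraries held 201.3, 204.5, 202.0, 186.7, 201.9 and 185.9 cpm in replicates 1 to 6. Its cmGch1 KO libraries held 167.3, 157.6, 169.9, 196.8, 170.7 and 176.2 cpm. As for Mid1ip1, only replicate 4 of the cmGch1 KO group entered the WT range. Cpt2 varied least of the 10 genes between hearts of 1 genotype, with a coefficient of variation of 4.26% in WT and 7.57% in cmGch1 KO. Its means were 197.0 ± 8.39 and 173.1 ± 13.1 cpm (n = 6 each), a log2 fold change of -0.19 (SE 0.06; edgeR adjusted p = 0.211; exact permutation p = 0.00866). Without the 2 libraries with Xist it was -0.15 (edgeR adjusted p = 0.723).

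Slc25a20 (ENSMUSG00000032602, chr9:108662088-108684641, plus strand), the carrier that exchanges acylcarnitine for carnitine across the inner membrane, had a WT mean of 233.6 ± 31.9 cpm, and the cmGch1 KO mean was 85.6% of it with an SD of 26.7 cpm. Its WT libraries ran from 185.0 to 272.2 cpm. In the cmGch1 KO group replicate 1 was at 253.2 cpm and the other 5 between 182.4 and 198.7 cpm, so that 1 library widened the spread. The log2 fold change was -0.22 (SE 0.10; edgeR adjusted p = 0.428), and without that library it was -0.30 (edgeR adjusted p = 0.110). Cpt1a (ENSMUSG00000024900, chr19:3322334-3385733, plus strand), the outer-membrane transferase of liver and many other tissues, was at 47.0 ± 9.29 and 49.3 ± 12 cpm. WT libraries ran from 35.9 to 60.7 cpm and cmGch1 KO libraries from 34.2 to 69.1 cpm, and 4 of 6 of the latter lay inside the WT range. Its log2 fold change was 0.07 (SE 0.16, 95% interval -0.25 to 0.39; edgeR adjusted p = 0.938) and turned to -0.05 without cmGch1 KO replicate 4, the highest library.

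Cpt1b (ENSMUSG00000078937, chr15:89416405-89425863, minus strand) encodes the outer-membrane transferase of heart and skeletal muscle, the form most sensitive to malonyl-CoA. Its counted level was low for such a gene, from 5.39 to 12.7 cpm in WT and from 3.27 to 10.9 cpm in cmGch1 KO libraries, or 74 to 435 counts. GENCODE M21 has a second protein-coding gene on the same strand, Gm44502, whose exons cover 2744 of the 3372 exon bases of Cpt1b (81.4%), which leaves 628 bases that belong to Cpt1b alone. Gm44502 is not analysed here, and whether the annotation used for counting held it is not given in the sources used here. If it did, shared reads could have been dropped or split, and if it did not, none were lost to it. The counts of Cpt1b may thus understate its level, which was not tested. With that limit, its means were 8.43 ± 3.23 and 6.31 ± 2.93 cpm, its coefficient of variation was the highest of the 10 genes at 38.3% and 46.4%, and its log2 fold change was -0.41 (SE 0.30, 95% interval -1.0 to 0.19; edgeR adjusted p = 0.704). The interval covers differences larger than that of Mid1ip1 as well as none.

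Carnitine uptake was represented by Slc22a5 (ENSMUSG00000018900, chr11:53864542-53891660, minus strand), the sodium-dependent carnitine transporter of the plasma membrane. WT libraries ran from 26.3 to 35.2 cpm and cmGch1 KO libraries from 21.2 to 27.9 cpm. All cmGch1 KO libraries were below the WT median and 2 were below the lowest WT library. The means were 30.3 ± 3.32 and 25.7 ± 2.85 cpm (n = 6 each), with a log2 fold change of -0.24 (SE 0.09; edgeR adjusted p = 0.311; exact permutation p = 0.0303). Without the 2 libraries with Xist it was -0.29 (edgeR adjusted p = 0.508; exact permutation p = 0.0333).

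Levels of different genes were compared as cpm per kilobase of merged exon. In WT hearts Cpt2 was the highest of the 10 at 82.4 ± 3.51, and Acaca the lowest at 0.555 ± 0.0804. Between them stood Mlycd at 53.6 ± 9.93, Slc25a20 at 48.2 ± 6.58, Mid1ip1 at 39.2 ± 3.73, Acacb at 35.3 ± 5.12, Slc22a5 at 9.87 ± 1.08, Cpt1a at 6.15 ± 1.22, Cpt1b at 2.5 ± 0.958 and Fasn at 1.79 ± 0.276 cpm per kilobase (SD, n = 6). Apart from Cpt1b, the genes of the shuttle, of carnitine uptake and of malonyl-CoA control other than Acaca stood above Fasn and Acaca in all 12 libraries. Cpt2 was first and Acaca last in each of the 12 libraries. Neighbours in the order that changed places between libraries were Mlycd with Slc25a20, Mid1ip1 with Acacb, Slc22a5 with Cpt1a, and Cpt1b with Fasn. In cmGch1 KO hearts the levels were 72.4 ± 5.48 for Cpt2, 46.8 ± 7.35 for Mlycd, 41.3 ± 5.51 for Slc25a20, 29.2 ± 3.94 for Mid1ip1, 28.4 ± 4.52 for Acacb, 8.38 ± 0.927 for Slc22a5, 6.45 ± 1.57 for Cpt1a, 2.35 ± 0.269 for Fasn, 1.87 ± 0.868 for Cpt1b and 0.514 ± 0.102 for Acaca. Fasn and Cpt1b thus stood in the opposite order to that of the WT means. The place of Cpt1b rests on counts that may leave out shared reads. If all had been left out, the same counts over its 628 unshared bases would give 13.4 cpm per kilobase in WT and 10 in cmGch1 KO hearts.

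**Figure D2:**
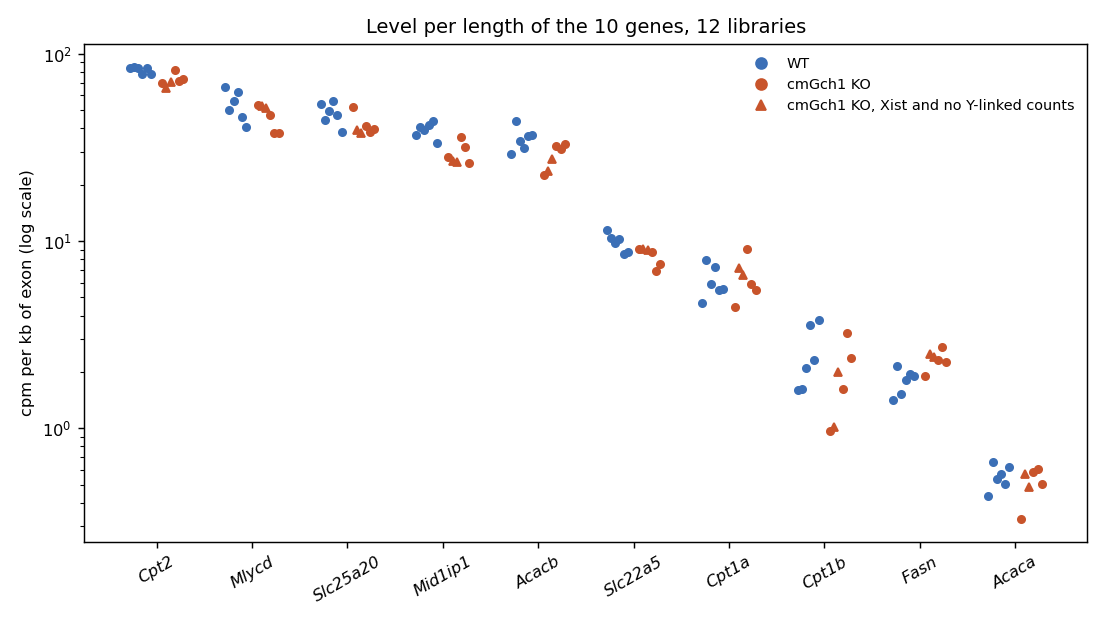
Level of the 10 genes in cpm per kilobase of merged exon (vertical axis, log scale), ordered by the median over all 12 libraries. Each library is 1 point, WT at the left and cmGch1 KO at the right of each gene. Triangles mark the 2 libraries with Xist. Cpt2 is highest and Acaca lowest in all 12 libraries, and Mid1ip1 and Acacb overlap.

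Ratios of a pair of genes within 1 library do not depend on how libraries are scaled. Acacb exceeded Acaca in every library per kilobase, by 54.5- to 72.2-fold in WT and 41.5- to 68.5-fold in cmGch1 KO hearts. The log2 ratio was 5.99 ± 0.14 in WT and 5.80 ± 0.26 in cmGch1 KO hearts, a difference of -0.19 (exact permutation test, two-sided, p = 0.139; 0.416 adjusted over 4 ratios). The log2 ratio of Acacb to Mlycd, maker to remover of malonyl-CoA, was -0.59 ± 0.44 and -0.72 ± 0.45, a difference of -0.13 (exact permutation p = 0.617). It became 0.03 without the 2 libraries with Xist. The log2 ratio of Cpt1b to Cpt1a was -1.36 ± 0.58 and -1.88 ± 0.75, and that of Cpt1b to Cpt2 was -5.12 ± 0.60 and -5.40 ± 0.66, both under the limit on Cpt1b given above (exact permutation p = 0.208 and 0.457). Without the 2 libraries with Xist the differences of Acacb to Acaca, Cpt1b to Cpt1a and Cpt1b to Cpt2 were -0.09, -0.33 and -0.18. None of the 4 differences passed the exact permutation test.

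Markers of the heart's cell types were summed in each library. The 8 cardiomyocyte markers, Myh6, Actc1, Tnnt2, Tnni3, Ryr2, Myl2, Myl3 and Pln, summed to 62403.2 to 66048.1 cpm in WT and 56310.6 to 60317.4 cpm in cmGch1 KO libraries. The groups did not overlap (exact permutation p = 0.00216, the smallest possible), the difference in the mean log2 sum was -0.13, and 7 of the 8 had lower fitted values, with 0 of 8 called. The 6 macrophage markers, Cd68, Adgre1, Csf1r, C1qa, C1qb and Mrc1, summed to 131.6 to 168.3 cpm and 165.1 to 207.8 cpm (exact permutation p = 0.00433), with higher fitted values in 6 of 6 and 0 called. The adipocyte sums are given with Fasn. Endothelial, fibroblast and smooth muscle or pericyte sums overlapped (exact permutation p = 0.610, 0.491 and 0.199), and in the last of these lists 1 gene, Acta2, was called (log2 0.66; edgeR adjusted p = 0.00672). When libraries were scaled to equal cardiomyocyte marker sums, a setting chosen after these levels were seen, the median of all genes moved to 0.12 on the log2 scale. Under it Mid1ip1 was at -0.29 (edgeR adjusted p = 0.0713), Acacb at -0.19, Cpt2 at -0.06, Slc25a20 at -0.09 and Slc22a5 at -0.11. Mlycd was at -0.06, Acaca at 0.02, Cpt1a at 0.20 and Cpt1b at -0.28. Fasn was at 0.52 and passed (edgeR adjusted p = 0.0174). With this scaling 633 of 11225 genes were called higher, against 76 in the main analysis. The part of the marker levels in these differences was not tested beyond this scaling.

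**Figure D3:**
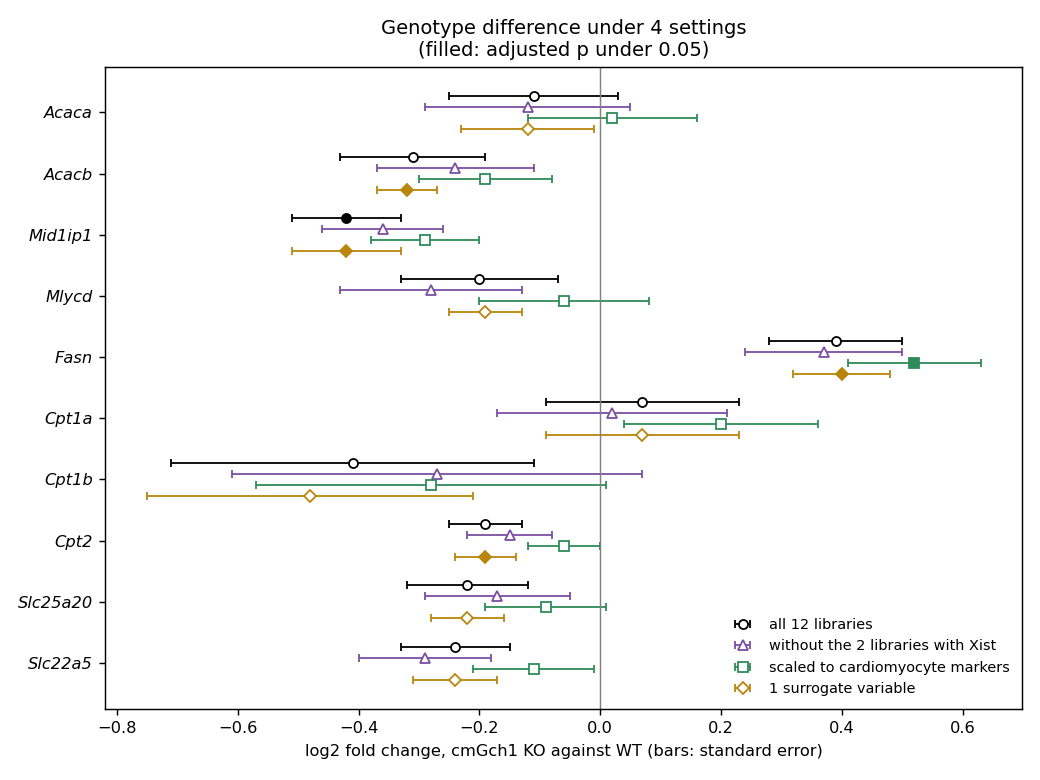
Log2 fold change of each gene, cmGch1 KO against WT (horizontal axis), with its standard error as bars under 4 settings, which are all 12 libraries, without the 2 libraries with Xist, scaled to cardiomyocyte markers, and with 1 surrogate variable; filled symbols have an adjusted p under 0.05. Mid1ip1 lies left of 0 and Fasn right of 0 under all 4, and the cardiomyocyte scaling moves every gene to the right of its value with all 12 libraries.

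The call of Mid1ip1 was close to the threshold. It was kept in 8 of 12 other settings and in 3 of 12 fits that left out 1 library, with log2 fold changes from -0.49 to -0.29 in all 24. Of the fits without 1 library, those without WT replicate 6 or cmGch1 KO replicate 4 or 5 kept it, and leaving out any of the other 9 ended it (edgeR adjusted p up to 0.114). Fasn was positive in all 24, from 0.33 to 0.52, and was called in 4 of 12 other settings and in 1 of 12 fits without a library, that without cmGch1 KO replicate 1 (edgeR adjusted p = 0.0491). DESeq2's Wald test called it at an adjusted p of 0.0384. With 1 surrogate variable, which stands for variation shared across genes and not given by the labels, edgeR called Mid1ip1, Fasn (0.40, adjusted p = 0.0148), Acacb (-0.32, adjusted p = 0.00535) and Cpt2 (-0.19, adjusted p = 0.0485). Over all 11225 tested genes that setting called 331 lower and 305 higher, against 50 and 76 in the main analysis. Mlycd, Cpt1a, Cpt1b, Acaca, Slc25a20 and Slc22a5 were called under no setting tried. Without the 2 libraries with Xist, the log2 fold changes not yet given were -0.24 for Acacb, -0.28 for Mlycd, -0.17 for Slc25a20, -0.12 for Acaca, 0.02 for Cpt1a and -0.27 for Cpt1b, with 8 of the 10 genes lower in sign, 2 of them at an unadjusted p under 0.05.

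**Figure D4:**
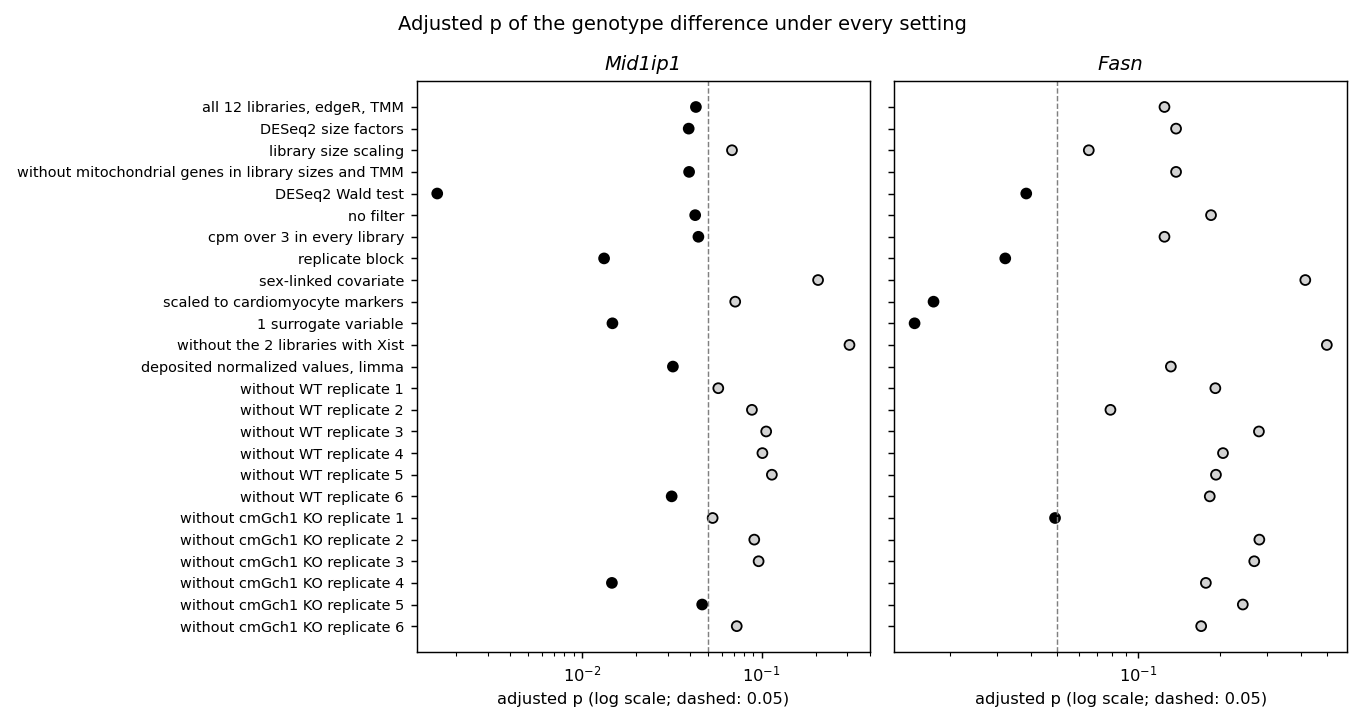
Adjusted p of the genotype difference of Mid1ip1 (left) and Fasn (right) on a log scale (horizontal axes) under the main analysis, 12 other settings and 12 fits without 1 library; the dashed line is 0.05 and filled points lie below it. The points of Mid1ip1 run from 0.00157 to 0.308 and those of Fasn from 0.0148 to 0.5.

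The neighbouring parts of the pathway were examined as 5 further lists, and 0 of their genes were called by edgeR at an adjusted p under 0.05, against 1.12% of all tested genes. Counts at an unadjusted p under 0.05 in each list below stand beside 4.51% of all tested genes lower and 7.01% higher. AMP-activated protein kinase (AMPK) phosphorylates and inactivates the carboxylases. Of 9 genes for its subunits and upstream kinases, all tested, 4 had lower and 5 higher fitted values, with a median log2 fold change of 0.02 and 2 higher at an unadjusted p under 0.05. The kinase kinase Camkk2 measured 13.1 ± 1.21 cpm for WT and 15.8 ± 1.45 cpm for cmGch1 KO hearts (log2 0.27, SE 0.08; edgeR adjusted p = 0.185). The subunit Prkag3 was at 3.93 ± 0.698 and 5.0 ± 0.966 cpm (log2 0.34; edgeR adjusted p = 0.390) and the catalytic subunit Prkaa1 at 17.2 ± 1.27 and 18.8 ± 0.935 cpm (log2 0.13; edgeR adjusted p = 0.5). Stk11, the main upstream kinase and the highest of the list at 34.6 cpm per kilobase, had a log2 fold change of -0.03.

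Supply of acetyl-CoA to the cytosol, with biotin handling, had 6 genes, of which 3 were lower and 3 higher with a median of -0.04 and none at an unadjusted p under 0.05 (edgeR). The citrate carrier Slc25a1 was at 5.86 ± 1.40 and 7.35 ± 1.66 cpm (edgeR adjusted p = 0.560), malic enzyme Me1, the highest of this list per kilobase, at 157.2 ± 6.87 and 144.7 ± 16.1 cpm (edgeR adjusted p = 0.608), and ATP citrate lyase Acly at 40.7 ± 2.96 and 38.6 ± 1.81 cpm (edgeR adjusted p = 0.755). Elongation and mitochondrial fatty acid synthesis, which also use malonyl-CoA, had 11 of 16 genes tested, 6 lower and 5 higher with a median of -0.02. At an unadjusted p under 0.05, 3 were higher and 1 lower. The elongase Elovl1 was at 12.1 ± 1.07 and 14.6 ± 0.864 cpm (log2 0.26, SE 0.08; edgeR adjusted p = 0.139), with 5 of 6 cmGch1 KO libraries above every WT library, as for Fasn. The dehydratase Hacd3 was at 20.4 ± 0.725 and 22.6 ± 1.77 cpm (log2 0.15; edgeR adjusted p = 0.402). The reductase Tecr, the highest of this list at 192.1 cpm per kilobase, was at 420.8 ± 31.4 and 367.8 ± 45.7 cpm (log2 -0.19; edgeR adjusted p = 0.388).

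Carnitine synthesis, other carnitine transport and other acyltransferases had 7 of 10 genes tested, 5 lower and 2 higher, with a median of -0.14 and 2 lower at an unadjusted p under 0.05. Carnitine acetyltransferase Crat, which buffers acetyl-CoA as acetylcarnitine, was the highest of this list at 103.4 cpm per kilobase. It was at 556.9 ± 24.6 and 487.3 ± 31.9 cpm (log2 -0.19, SE 0.06; edgeR adjusted p = 0.191), and 4 of 6 cmGch1 KO libraries were below every WT library. Tmlhe, the first enzyme of carnitine synthesis, was at 16.8 ± 1.03 and 14.5 ± 2.17 cpm (log2 -0.22; edgeR adjusted p = 0.388). Aldh9a1, a later enzyme of that synthesis, was at 39.2 ± 3.20 and 35.5 ± 3.14 cpm (log2 -0.14; edgeR adjusted p = 0.540). Crat and Tmlhe had the sign of the shuttle genes Cpt2 and Slc25a20, and not that of Cpt1a, without passing the test. Of all tested genes 53.3% had this sign.

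Regulators of lipogenic genes had 12 of 13 genes tested, 7 lower and 5 higher with a median of -0.04, and 1 in each direction at an unadjusted p under 0.05. Usf2, an E-box binding factor, was at 49.3 ± 9.13 and 38.4 ± 2.80 cpm (log2 -0.36, SE 0.11, edgeR adjusted p = 0.162). It was the highest of this list per kilobase in WT hearts, at 18.6 cpm, but not in cmGch1 KO hearts, at 14.5 cpm. Srebf2, the sterol-responsive factor, was at 31.6 ± 2.73 and 35.8 ± 2.99 cpm (log2 0.18; edgeR adjusted p = 0.388). Mlxipl, the carbohydrate-responsive factor, was at 26 ± 4.67 and 22.1 ± 2.41 cpm (log2 -0.24; edgeR adjusted p = 0.5). Mid1, the partner for which Mid1ip1 is named, did not pass the filter.

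**Figure D5:**
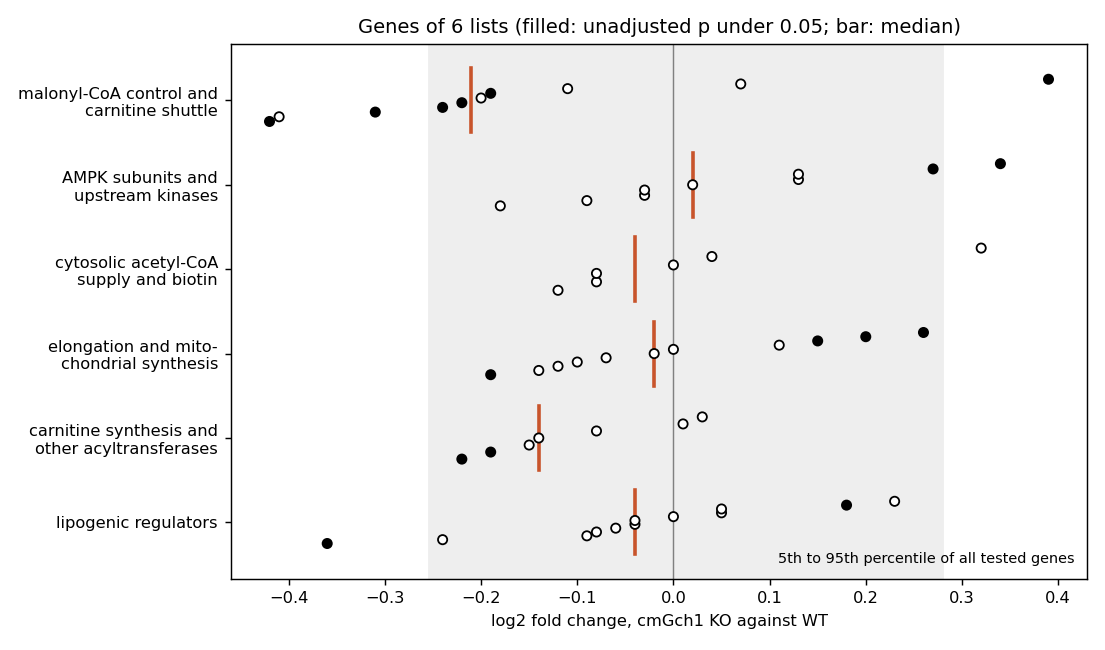
Log2 fold change, cmGch1 KO against WT (horizontal axis), of each tested gene of the 10 and of the 5 neighbouring lists, 1 point per gene; filled points have an unadjusted p under 0.05, vertical bars are the list medians and the grey band spans the 5th to 95th percentile of all tested genes, -0.25 to 0.28. The first list has its median at -0.21 and genes outside the band on both sides. The medians of the others lie between -0.14 and 0.02, and of their genes Prkag3 (0.34), Slc25a1 (0.32) and Usf2 (-0.36) also lie outside the band.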

How the data were processed

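RNA from the left ventricle of 6 WT and 6 cmGch1 KO mice was sequenced by the authors as stranded paired-end libraries. The authors deposited raw counts per Ensembl gene, made with HISAT2, Picard and featureCounts per the paper's methods. The submitters' processing notes also name SAMtools and GRCm38. Tool versions of the alignment, the gene annotation and whether counting used strand are not given in the sources used here. The authors also deposited normalized values on a log2-like scale, whose tool is not given in the sources used here and which were used as an alternative only. Of 26921 gene identifiers, 26582 were found in GENCODE M21, which gave symbols, coordinates and exon lengths. Groups and replicate numbers came from the sample labels.

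Counts were fitted with edgeR 4.0.16 in R 4.3.3 on genotype, with TMM scaling and a quasi-likelihood test, keeping genes above 3 cpm in 6 or more libraries (or as many as the smaller group where libraries were left out). P-values were adjusted by the Benjamini-Hochberg method over all 11225 tested genes at a threshold of 0.05. Depth was 19921398 to 37917806 counts per library. A count of 0 was taken to allow 3 counts. Without molecular identifiers such floors reflect counting error alone. Single values and log2 ratios (0.5 counts added, per kilobase of exon) were tested by an exact permutation test over libraries, two-sided. Alternatives used DESeq2 1.42.0, sva 3.50.0 and limma 3.58.1, other scalings and filters, covariates, and fits without libraries. Scripts were tested on simulated data. The genes named are the 10, Gch1, sex-linked and marker genes, and of each neighbouring list the 3 with the smallest p and the highest per length in WT. The 10 genes and the lists were chosen with earlier results of these data known. Promoter sequences are from RefSeq on GRCm38.p6.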

Additional observations from a re-analysis of the deposited data

Results flagged for a closer look

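The value of Slc25a20 in cmGch1 KO replicate 1, 253.2 cpm, stood far from the other 5 libraries of its genotype, which lay between 182.4 and 198.7 cpm; its gap to the nearest was 0.77 of the whole range. It was the only one found among 28 groups of 6 values that were examined, and chance alone sets apart about 1 in 20 such groups. The same library was the lowest of its genotype for 5 of the 10 genes and the highest for 3. The cause was not tested.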

How the results depend on the processing

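With all 12 libraries 50 genes were lower and 76 higher, with 1 of the 10 genes called. The counts of genes lower and higher, and of the 10 called, were 36, 116 and 0 with library size scaling (which moved the median of all genes to 0.07), 155, 218 and 2 with DESeq2's Wald test, 24, 40 and 0 with the sex-linked covariate, 331, 305 and 4 with 1 surrogate variable, 18, 20 and 0 without the 2 libraries with Xist, and 37, 633 and 1 (Fasn) when scaled to cardiomyocyte markers, a setting added after seeing the data. Replicate numbers do not pair the animals by any label, and same-numbered libraries correlated from -0.128 to 0.676, each best with its own number in 3 of 6; with the replicate block 76, 112 and 2 were counted (Mid1ip1 and Fasn). Without 1 library the counts ranged from 31 to 98 lower, 43 to 118 higher and 0 to 1 of the 10, the most without cmGch1 KO replicate 1, where the gene called was Fasn (edgeR adjusted p = 0.0491) and not Mid1ip1. DESeq2's size factors, leaving out mitochondrial genes, other filters and the deposited normalized values left 1 of the 10 called. Signs turned for Acaca (0.02, scaled to cardiomyocyte markers), Cpt1a (-0.05 to 0.16 without 1 library, the lowest without cmGch1 KO replicate 4) and the log2 ratio of Acacb to Mlycd (0.03, without the 2 libraries with Xist); the causes were not tested.

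Counts were lowest for Cpt1b, with 74 in its lowest library, and Acaca, with 137, and the part of depth in their spread was not tested. The effect of exon overlap on Cpt1b and Mid1ip1 was not tested, since the annotation and strand setting of the counting are not given in the sources used here. With 6 animals a group, Cre without floxed Gch1 not analysed here and 2 cmGch1 KO libraries with Xist, Cre, Gch1 and these libraries cannot be fully told apart.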
